A study of Mus musculus with 8 samples.

Results

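The early response transcription factors Egr1, Egr2, Egr3, Fos, Fosb, Fosl2, Jun, Junb, Jund and Nr4a1 were followed in bulk RNA-seq of OT-I T cells in which Elovl1, an elongase of very long chain fatty acids, was or was not targeted with CRISPR. These 10 genes were taken by symbol from a table of 56805 genes, and all 10 were found and tested. OT-I cells are CD8+ T cells with a transgenic receptor for an ovalbumin peptide. By the study's methods they came from spleen and lymph nodes of crosses of Rag2/OT-I with Rosa26-Cas9 knock-in mice, in which every cell carries the Cas9 nuclease, and were activated with beads against CD3 and CD28 and expanded in IL-2, IL-7 and IL-15. The sgElovl1 cells received a lentiviral vector with a guide against Elovl1, and the sgNT cells the same kind of vector with a non-targeting guide. Cells expressing the vector's reporter CD90.1 were sorted 3 days after transduction, so that both groups carried Cas9 and the vector, and the sort selected transduced and not edited cells. The methods describe beads in the opening culture step only, then expansion in cytokines, and no restimulation before this sort. The levels below are therefore those of expanded cells, days after receptor stimulation. By the study's methods the mice were young adults with no selection by sex. There were 8 labelled samples, 2 of each condition in each of 2 experiments, and the authors had summed the 2 samples, from replicate mice, of a condition and experiment, so that 4 columns of counts were analysed.

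Early response genes are switched on within minutes of receptor signalling without new protein synthesis, and their RNA is short-lived. In T cells the antigen receptor acts through the MAP kinase ERK on serum response factor and its ternary complex partners, which drive the Egr and Fos genes, through JNK on Jun, and through calcium on NFAT and MEF2, which drive Nr4a1. EGR proteins are zinc finger factors, FOS and JUN proteins pair through leucine zippers to form AP-1, and NR4A1 is an orphan nuclear receptor. Nr4a1 in particular is widely used as a reporter of receptor signalling.

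The control regions of 4 members are shown because they hold letters of binding sequences tied to these pathways, in a gene that fell (Egr2), in one that rose (Jun), and in a pair whose sgElovl1 to sgNT ratios had opposite signs in the experiments (Fos and Fosb). They are RefSeq windows of GRCm38.p6, 250 bases before to 50 after a transcription start, written along the gene, at chr10:67537619-67537918 (plus strand), chr12:85473640-85473939 (plus), chr7:19309996-19310295 (minus) and chr4:95052173-95052472 (minus). Capitals mark, for Egr2, a CArG box, the binding sequence of serum response factor, and a TGACGT on the opposite strand, the core of a cyclic AMP response element. They mark TGACGT for Fos, GCGGGGGCG, a binding sequence of EGR proteins, for Fosb, and TGACATCA, a variant AP-1 site, with a MEF2 site for Jun.
Egr2 promoter: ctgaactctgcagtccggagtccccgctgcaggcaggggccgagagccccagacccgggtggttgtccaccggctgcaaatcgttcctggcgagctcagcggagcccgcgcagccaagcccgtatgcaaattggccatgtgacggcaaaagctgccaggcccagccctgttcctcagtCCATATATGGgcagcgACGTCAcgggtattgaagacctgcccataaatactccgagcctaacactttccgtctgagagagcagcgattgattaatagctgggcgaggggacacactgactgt
Fos promoter: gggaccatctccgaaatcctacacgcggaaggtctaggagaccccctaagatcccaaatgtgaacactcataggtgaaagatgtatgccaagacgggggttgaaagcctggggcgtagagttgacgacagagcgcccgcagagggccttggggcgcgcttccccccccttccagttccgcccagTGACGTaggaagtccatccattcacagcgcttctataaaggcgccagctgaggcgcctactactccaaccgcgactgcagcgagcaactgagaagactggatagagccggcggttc
Fosb promoter: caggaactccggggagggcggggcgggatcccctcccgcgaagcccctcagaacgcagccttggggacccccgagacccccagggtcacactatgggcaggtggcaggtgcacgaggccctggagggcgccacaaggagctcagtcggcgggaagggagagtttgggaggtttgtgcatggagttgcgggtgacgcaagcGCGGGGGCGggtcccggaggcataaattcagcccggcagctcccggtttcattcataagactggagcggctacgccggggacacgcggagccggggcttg
Jun promoter: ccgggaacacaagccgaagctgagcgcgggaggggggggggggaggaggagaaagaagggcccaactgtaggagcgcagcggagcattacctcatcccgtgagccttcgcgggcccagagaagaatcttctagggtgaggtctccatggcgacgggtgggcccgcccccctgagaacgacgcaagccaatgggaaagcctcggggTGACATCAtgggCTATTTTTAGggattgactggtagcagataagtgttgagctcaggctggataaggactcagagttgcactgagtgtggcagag

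Windows were listed for 8 of the 10 genes (5 windows for Egr2 and 1 for each other gene), and both strands were searched. A CArG box was present in 1.63% of all 32851 windows and, of the 8 genes, in Egr2 only. In the Egr2 window shown, the CArG box lay at positions -72 to -63 and the TGACGT at -56 to -51 from the start. TGACGT occurred in 7.51% of windows and in Egr2 and Fos, TGACATCA in 3.62% and in Jun, and a MEF2 site in 3.19% and in Jun. GCGGGGGCG occurred in 2.91% of windows and in Fosb, Fosl2 and Nr4a1. The related GCGTGGGCG (0.612% of windows) and the classical AP-1 site TGACTCA (5.2%) were found in none of the 8 genes. These matches describe letters in a short window and not occupied sites.

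Total counts were 51621372 and 57341720 in the sgElovl1 columns and 63623476 and 49068952 in the sgNT columns of experiments 1 and 2. Elovl1 itself had 61.2 and 55.8 CPM (counts scaled to library size with TMM factors) in sgElovl1 cells, against 110 and 93.5 CPM in sgNT cells, which left 57.5% of the sgNT level. T cell genes were abundant, with the 10 listed markers such as Cd3e and Cd8a summing to 4955 to 5408 CPM in sgElovl1 and 5221 to 5453 CPM in sgNT columns. The 6 listed B cell markers summed to 8.68 to 10.01 CPM in sgElovl1 and 8.30 to 10.7 CPM in sgNT columns, the 10 myeloid and dendritic markers to 12.2 to 15.6 and 9.71 to 14.1 CPM, with Ms4a1, S100a8, S100a9 and Siglech at 0 in every column. The 7 erythroid and stromal markers summed to 32.0 to 51.9 CPM in sgElovl1 and 26.3 to 50.4 CPM in sgNT columns. The 4 CD4 T cell markers summed to 31.6 to 37.4 CPM in sgElovl1 and 30.7 to 36.0 CPM in sgNT columns, and the 5 NK markers to 158 to 231 and 155 to 256 CPM. Nearly all of the NK sum was Eomes, which activated CD8+ T cells also express, at 230 and 156 CPM in sgElovl1 and 255 and 153 CPM in sgNT columns, while Klrb1c and Klra4 were at most 1.79 CPM and Ncr1 and Klra8 at 0. Mitochondrial RNA took 9.72% and 14.3% of the counts in sgElovl1 cells and 7.72% and 10.2% in sgNT cells. With mitochondrial and the 20 most counted genes left out of scaling, Egr1, Egr2 and Jun still passed in edgeR. Any other part of mitochondrial RNA in the results below was not tested. The 10 early response genes together held 0.0856% to 0.0946% of the counts of a column. In bulk RNA, fewer cells that express a gene and less RNA per cell cannot be told apart.

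The first comparison asked whether targeting Elovl1 altered the levels of these genes in the expanded cells, days after bead activation and without restimulation. Egr1 and Egr2 were lower and Jun was higher in sgElovl1 than in sgNT cells in both experiments, while the other 7 genes did not pass the test. The 3 calls among 10 members stand beside 192 of 16006 genes over the whole table (1.20%), with 0.437% of genes called lower and 0.762% called higher (edgeR quasi-likelihood test with experiment as a term, adjusted p over all genes, threshold 0.05). The median log2 fold change of the members was -0.11, against -0.01 over all genes. Both sgElovl1 columns lay below both sgNT columns for 1 member (Egr2; 6.85% of all genes tested) and above them for 2 (Egr3 and Jun; 5.77%), and for 7 members the columns overlapped (87.4%).

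**Figure D1:**
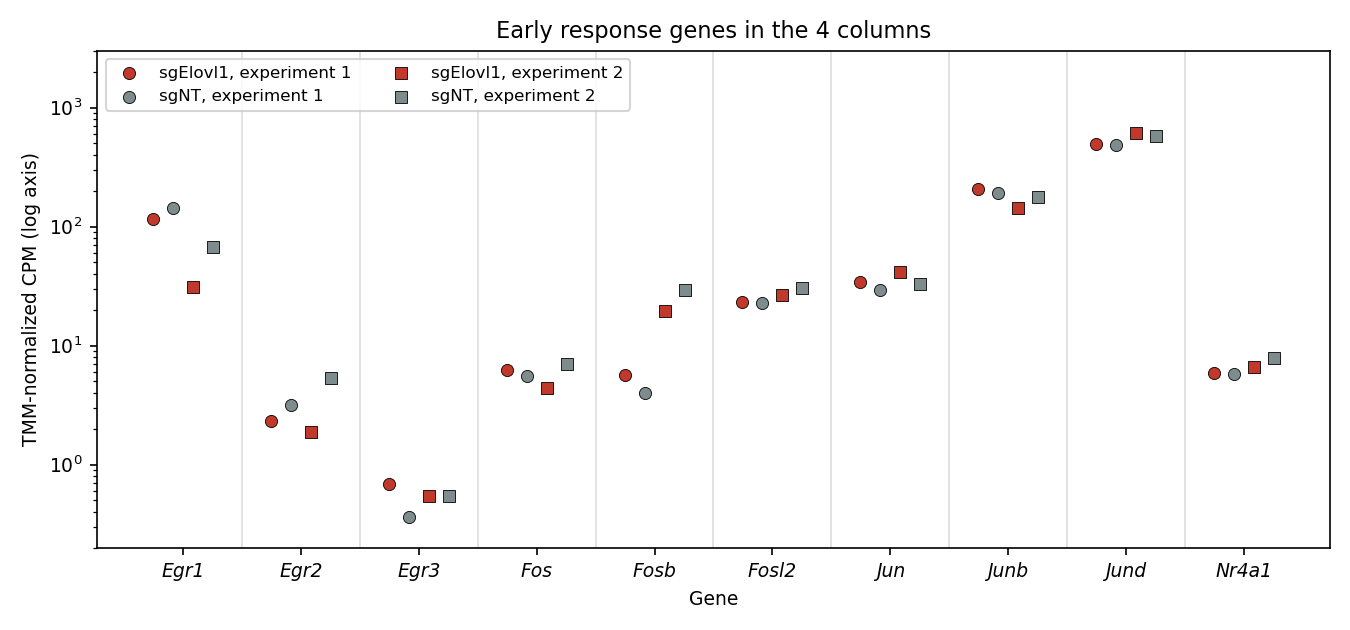
Level of each of the 10 genes in TMM-normalized CPM on a log axis, with 1 point per column, red for sgElovl1 and grey for sgNT, circles for experiment 1 and squares for experiment 2. Egr1 lies at 116 and 31.0 CPM in sgElovl1 cells, against 143 and 66.9 CPM in sgNT cells, and Fosb lies 5.03-fold higher in experiment 2 than in experiment 1.

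Egr1 encodes a zinc finger factor induced through ERK. It stood at 116 and 31.0 CPM in sgElovl1 cells of experiments 1 and 2, against 143 and 66.9 CPM in sgNT cells. The sgElovl1 column was the lower one within each experiment, yet the sgElovl1 column of experiment 1 lay above the sgNT column of experiment 2. The log2 fold change came to -0.67 (SE 0.07, edgeR adjusted p = 2.13e-19), or 62.7% of the sgNT level. Within experiment 1 the log2 ratio was -0.29 (95% counting interval -0.34 to -0.24) and within experiment 2 it was -1.11 (-1.19 to -1.03). These intervals are exact binomial ones and cover counting error only, since each experiment had 1 column per condition. They did not overlap, and the difference of -0.82 between the experiments could not be tested against replicate spread. The edgeR p-value rests on a spread shared by all genes and does not contain that difference. DESeq2, which estimates the spread of each gene, gave Egr1 a log2 fold change of -0.69 with an adjusted p of 0.795 (Wald test). Permuting the 4 columns gave an exact two-sided p of 0.667, the smallest possible for 2 against 2 columns being 0.333. That permutation ignored the matching of columns by experiment, so that the difference between experiments entered it.

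Egr2, which restrains T cell activation and supports anergy, was counted far less, with 123 and 104 counts in the sgElovl1 columns and 200 and 266 in the sgNT columns. These were 2.34 and 1.88 CPM in sgElovl1 cells, against 3.16 and 5.32 CPM in sgNT cells, and the groups did not overlap. The log2 fold change was -0.97 (SE 0.25, edgeR adjusted p = 0.0168), which left 51.1% of the sgNT level. Its log2 ratio was -0.43 (-0.77 to -0.10) in experiment 1 and -1.505 (-1.85 to -1.17) in experiment 2. DESeq2 gave no adjusted p for this gene, and the exact permutation test gave 0.333, the smallest value it allows.

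With any 1 column left out, 3 columns remained, which left no room for a term for the experiment, and 0 of the 10 members and 0 to 6 of all genes passed in edgeR. The log2 fold change of Egr1 was then 0.17 without the sgElovl1 column of experiment 2 and 0.13 without the sgNT column of experiment 1, and -1.75 and -0.93 without the other two. Egr2 stayed between -1.34 and -0.56 and Jun between 0.13 and 0.42. With all 4 columns and no term for the experiment, 0 genes passed in edgeR (19 at an unadjusted p under 0.05), members included.

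Egr3, a close relative with an overlapping role in T cells, had 36 and 30 counts in sgElovl1 cells and 23 and 27 counts in sgNT cells. Its log2 fold change was 0.46 (SE 0.63, edgeR adjusted p = 0.887), with 0.91 (0.12 to 1.74) in experiment 1 and 0.00 (-0.80 to 0.81) in experiment 2. In experiment 2 the levels were 0.541 CPM in sgElovl1 and 0.540 CPM in sgNT cells. The counting interval there still held log2 falls of up to 0.80. Egr4, the remaining family member, had 3 and 11 counts in sgElovl1 and 1 and 23 in sgNT columns and did not pass (edgeR adjusted p = 0.951).

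The fall of the Egr pair in experiment 2 lay at the edge of the whole distribution. Among the 10658 genes with at least 100 counts in every column, Egr2 had the lowest and Egr1 the second lowest log2 ratio of that experiment. Egr2 had 104 counts in the sgElovl1 column of experiment 2, close to that limit, and genes with fewer than 100 were not ranked. In experiment 1 the same genes ranked 188 (Egr2) and 590 (Egr1) from the lowest. The difference of the log2 ratio between experiments was at least as large as that of Egr1 in 0.910% of these genes and at least as large as that of Egr2 in 0.338%, against a median absolute difference of 0.12. The 5 genes nearest to Egr1 by their pair of log2 ratios, over these 4 columns, were Pdpr (-0.39 and -0.90), Slfn10-ps (-0.29 and -0.81), Trbj1-4 (-0.24 and -0.77), Zbed6 (-0.15 and -0.77) and Kcna3 (-0.05 and -0.83), and Egr2 ranked 6 of 10657.

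**Figure D2:**
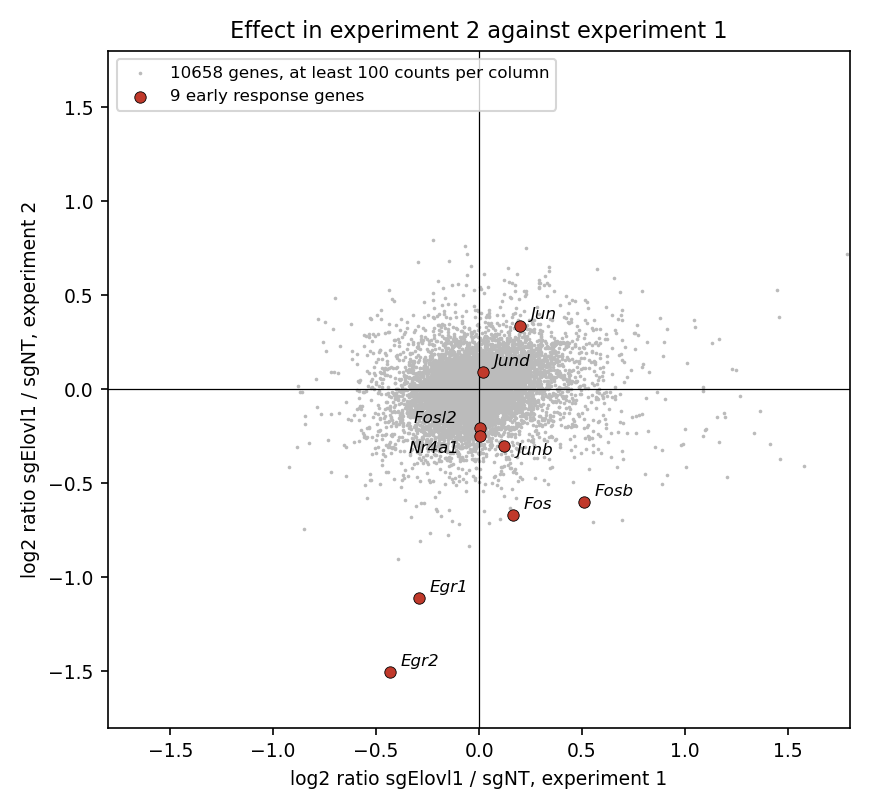
Log2 ratio of sgElovl1 to sgNT in experiment 1 (x axis) and experiment 2 (y axis) for the 10658 genes with at least 100 counts in every column (grey) and 9 of the early response genes (red, Egr3 has fewer counts). Egr1 and Egr2 lie lowest in experiment 2 at -1.11 and -1.505, and Fos and Fosb lie to the right of 0 and below it.

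Among the Jun genes, which encode the AP-1 subunits that bind DNA as pairs with each other or with FOS proteins, Jun was the member that rose. It had 33.9 and 41.9 CPM in sgElovl1 cells, against 29.5 and 33.1 CPM in sgNT cells. Both sgElovl1 columns were above both sgNT columns, the lower sgElovl1 value by less than 1 CPM. The log2 fold change was 0.27 (SE 0.08, edgeR adjusted p = 0.044), with 0.20 (0.11 to 0.29) in experiment 1 and 0.34 (0.25 to 0.43) in experiment 2. The call was close to the threshold and was lost with no filter on low counts (edgeR adjusted p = 0.197), when genes under 5 CPM were left out (0.101 in edgeR), in limma-voom (0.0573), in DESeq2 (0.494, Wald test) and with an offset for a shift that follows the difference of the experiments (0.144 in edgeR). The log2 fold change was 0.25 to 0.29 in these fits.

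Junb, which tempers JUN activity and pairs with BATF in activated T cells, had ratios of opposite sign in the experiments. It had 208 CPM in sgElovl1 and 191 CPM in sgNT cells of experiment 1, and 143 CPM in sgElovl1 and 176 CPM in sgNT cells of experiment 2. The log2 ratios were 0.12 (0.08 to 0.16) and -0.30 (-0.35 to -0.26), and the combined value was -0.09 (SE 0.06, edgeR adjusted p = 0.677). Jund, which is broadly and steadily expressed in many tissues, had 495 and 610 CPM in sgElovl1 cells, against 489 and 572 CPM in sgNT cells. Its log2 fold change of 0.06 (SE 0.07, edgeR adjusted p = 0.864) was within its error, and in experiment 2 alone the log2 ratio of 0.09 (0.07 to 0.11) exceeded counting error.

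The Fos genes encode the AP-1 subunits that need a JUN partner. Fos had 6.29 and 4.44 CPM in sgElovl1 cells, against 5.60 and 7.06 CPM in sgNT cells. The sgElovl1 column was the higher one in experiment 1 (log2 ratio 0.17, -0.05 to 0.39) and the lower one in experiment 2 (-0.67, -0.91 to -0.43), with a combined value of -0.25 (SE 0.17, edgeR adjusted p = 0.677). Fosb, whose protein is close to FOS, had 5.66 and 19.4 CPM in sgElovl1 cells, against 3.98 and 29.4 CPM in sgNT cells. Its log2 ratio was 0.51 (0.26 to 0.76) in experiment 1 and -0.60 (-0.71 to -0.48) in experiment 2, and the combined value was -0.15 (SE 0.11, edgeR adjusted p = 0.699). That value depended on the fit, at -0.38 in limma-voom (adjusted p = 0.0719), -0.36 with that offset (0.168 in edgeR) and -0.41 without a term for the experiment (1 in edgeR). Among the well-counted genes, 15.8% had a ratio above 0 in experiment 1 and below 0 in experiment 2, and a difference between experiments as large as that of Fosb was seen in 0.281%.

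Fosl2, which encodes FRA2, had 23.1 and 26.7 CPM in sgElovl1 cells, against 23.0 and 30.8 CPM in sgNT cells. The log2 fold change was -0.10 (SE 0.08, edgeR adjusted p = 0.754), with 0.01 (-0.10 to 0.12) and -0.20 (-0.31 to -0.10) in the experiments. Nr4a1, the nuclear receptor also known as NUR77, had 5.83 and 6.58 CPM in sgElovl1 cells, against 5.82 and 7.82 CPM in sgNT cells. Its log2 fold change was -0.12 (SE 0.16, edgeR adjusted p = 0.881), with 0.00 (-0.22 to 0.22) in experiment 1 and -0.25 (-0.46 to -0.04) in experiment 2. In experiment 2 the columns of Fosl2 and Nr4a1 differed beyond counting error, and in experiment 1 they did not.

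Across the family, 2 members were lower in sgElovl1 cells within both experiments, against 30.1% of all genes tested, and 3 were higher within both (Egr3, Jun and Jund), against 25.6%. Fos, Fosb, Junb, Fosl2 and Nr4a1 were higher in one and lower in the other, as were 44.1% of all genes. The median log2 ratio of the 10 members was 0.07 in experiment 1 and -0.28 in experiment 2, against -0.02 and -0.00013 over all genes tested. In experiment 2, 7 of the 10 were below 0, and the log2 ratios of Fos (-0.67) and Fosb (-0.60) ranked 17 and 26 from the lowest of the 10658 well-counted genes.

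**Figure D3:**
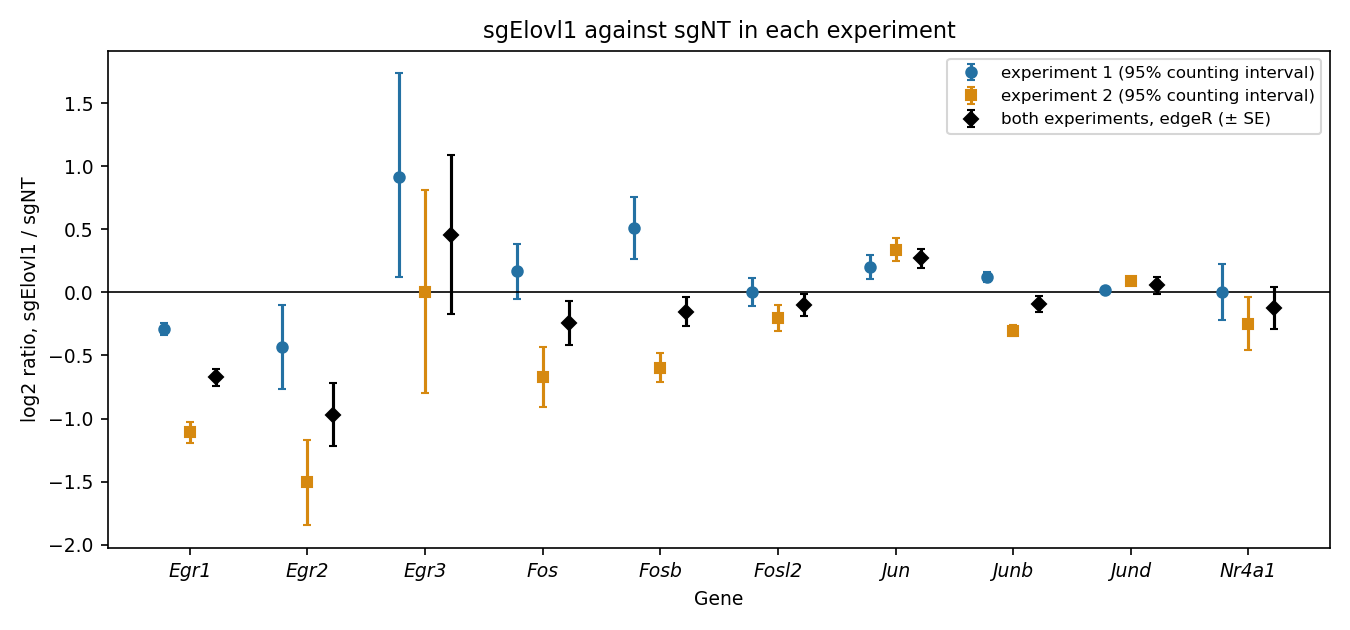
Log2 ratio of sgElovl1 to sgNT for each of the 10 genes in experiment 1 (blue circles) and experiment 2 (orange squares), with 95% intervals that cover counting error only, and over both experiments (black diamonds, edgeR, with SE). Egr1 and Egr2 lie below 0 and Jun above 0 in both experiments, while Fosb lies at 0.51 and -0.60.

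The second comparison asked how far the genes varied between the experiments themselves. Experiment 2 differed from experiment 1 in 55.6% of all genes tested (edgeR, with condition as a term), and 6 of the 10 members passed, 4 higher (26.4% of all genes) and 2 lower (29.2%). Fosb was 5.03-fold higher in experiment 2 (log2 2.33, SE 0.12, edgeR adjusted p = 9.23e-85), with 19.4 and 29.4 CPM in experiment 2 (sgElovl1 and sgNT), against 5.66 and 3.98 CPM in experiment 1. Egr1 moved the other way, at a log2 fold change of -1.49 (SE 0.07, edgeR adjusted p = 4.75e-100), or 0.357 times the level of experiment 1. These edgeR values do not contain the difference between the conditions, at -1.91 in sgElovl1 and -1.09 in sgNT columns for Egr1. For Fosb the log2 ratios were 1.78 and 2.88. The Wald test of DESeq2 called both with larger errors, at SE 0.395 for Egr1 (adjusted p = 0.000618) and 0.526 for Fosb (adjusted p = 3.67e-05). Among the well-counted genes Fosb ranked 11 from the highest and Egr1 ranked 110 from the lowest in this difference.

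The remaining members differed less between experiments. Fosl2, Jun and Jund were higher in experiment 2 at 0.32, 0.24 and 0.27 on the log2 scale, and Junb was lower at -0.33, each past the threshold in edgeR. The Wald test of DESeq2 did not call Jun or Junb (adjusted p = 0.0711 and 0.203). Egr2, Egr3, Fos and Nr4a1 had 0.26, 0.10, -0.08 and 0.30 and did not pass in edgeR (adjusted p from 0.109 to 0.905). For Egr2, Egr3 and Fos the 2 conditions went in opposite directions. Their log2 ratios of experiment 2 to experiment 1 were -0.32, -0.34 and -0.50 between the sgElovl1 columns and 0.75, 0.57 and 0.33 between the sgNT columns.

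**Figure D4:**
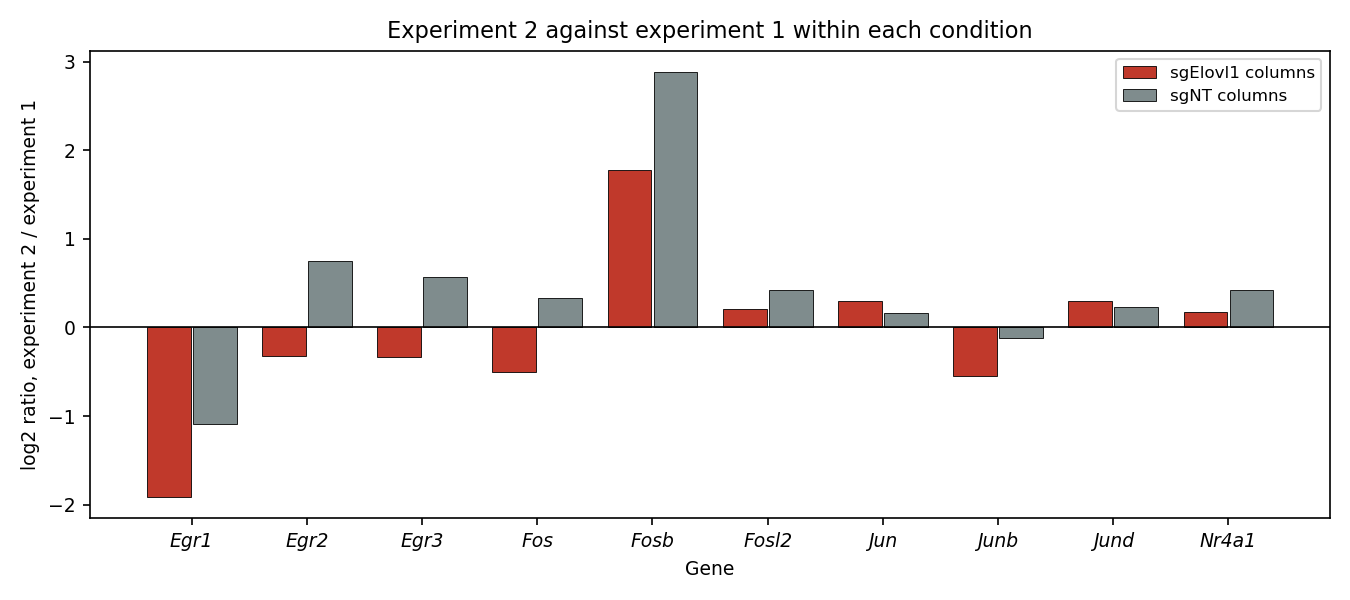
Log2 ratio of experiment 2 to experiment 1 for each of the 10 genes, between the sgElovl1 columns (red) and between the sgNT columns (grey), with 1 column per bar and no error bars. Fosb lies at 1.78 and 2.88 and Egr1 at -1.91 and -1.09, while Egr2 and Fos point in opposite directions in the conditions.

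The shares of Egr1 and Fosb in their families differed more between the experiments than between the conditions. Egr1 held 97.5% of the counts of the 3 Egr genes in sgElovl1 and 97.6% in sgNT cells of experiment 1, and 92.8% and 91.9% in experiment 2. Fosb held 16.2% of the counts of the 3 Fos genes in sgElovl1 cells (exact binomial 95% interval 14.5% to 17.9%) and 12.2% in sgNT cells (10.8% to 13.7%) of experiment 1. In experiment 2 it held 38.4% (36.6% to 40.2%) in sgElovl1 and 43.7% (42.03% to 45.4%) in sgNT cells. Junb held 28.2% and 27.0% of the counts of the 3 Jun genes in sgElovl1 and sgNT cells of experiment 1, and 17.9% and 22.5% in experiment 2. The summed Jun genes had log2 ratios of 0.05 and 0.02 in the experiments, whereas the summed Egr genes had -0.29 and -1.12 and the summed Fos genes 0.11 and -0.41. Within-family shares of counts do not correct for transcript length.

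**Figure D5:**
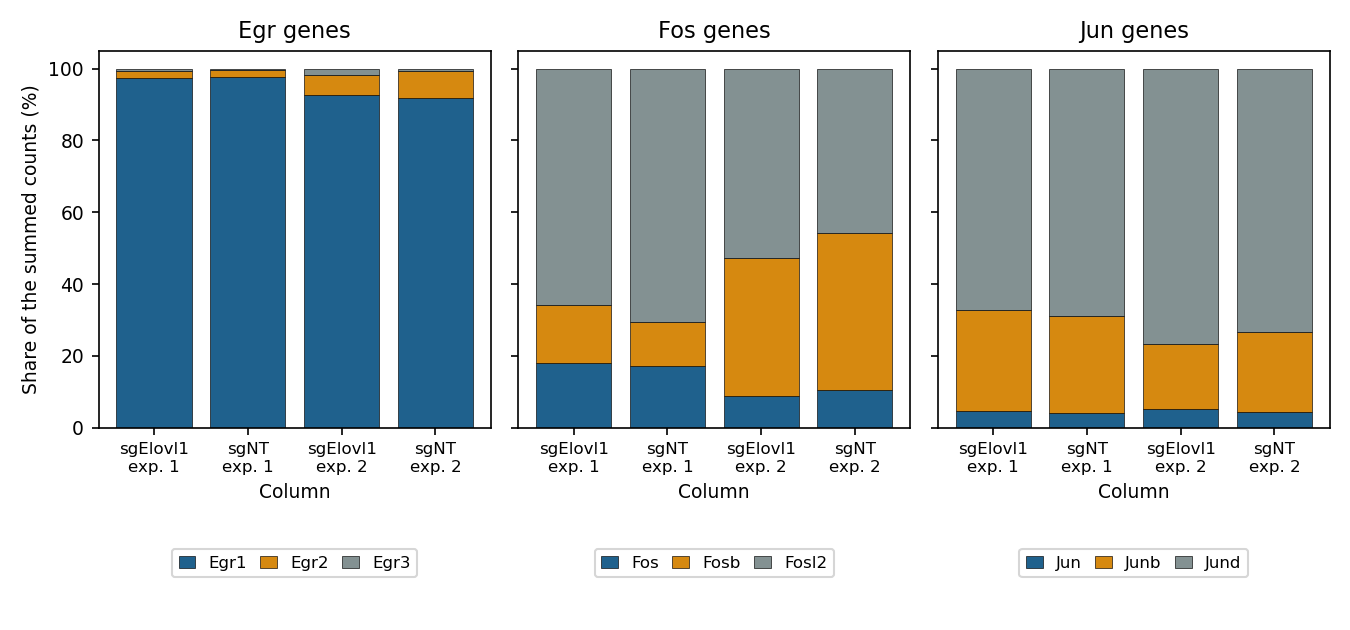
Share of each gene in the summed counts of the 3 Egr, 3 Fos and 3 Jun genes in each column, sgElovl1 left of sgNT within each experiment. Egr1 makes up 91.9% to 97.6% of the Egr counts, and Fosb 12.2% to 16.2% of the Fos counts in experiment 1 and 38.4% to 43.7% in experiment 2.

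Per kilobase of exon (GENCODE M21), the level of Jund was highest in every column, at 297 and 366 CPM per kb in sgElovl1 and 293 and 343 CPM per kb in sgNT cells. Junb followed at 90.3 and 61.9 CPM per kb in sgElovl1 and 83.1 and 76.4 CPM per kb in sgNT cells. Egr1 came next in experiment 1, at 26.0 CPM per kb in sgElovl1 and 31.8 CPM per kb in sgNT cells, ahead of Jun at 10.6 and 9.25 CPM per kb. In experiment 2 Jun at 13.1 CPM per kb stood above Egr1 at 6.91 CPM per kb in sgElovl1 cells, and Egr1 at 14.9 CPM per kb above Jun at 10.4 CPM per kb in sgNT cells. Fos, Fosl2, Fosb and Nr4a1 lay between 0.637 and 4.71 CPM per kb in all columns and changed places between them. Egr2 lay between 0.552 and 1.57 CPM per kb, and Egr3 was lowest at 0.0824 to 0.155 CPM per kb. Reads were counted over whole genes, introns included, so that exon length is an approximation. No other annotated gene overlaps a member on the same strand in that annotation, and the opposite-strand partners Junos (Jun), Prdx2 (Junb) and Gm11175 (Jund) were kept apart by stranded counting.

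The other genes of these families did not pass in edgeR or limma-voom. The Wald test of DESeq2 gave an adjusted p to only 1 of the 9 genes that follow and to the 2 corepressors, and called none. Of 9 further Egr, AP-1 and Nr4a genes none was called in edgeR, against 1.20% of all genes tested. Their median log2 fold change was -0.11. At an unadjusted p under 0.05 there was 1, against 1699 of all 16006 genes tested. Jdp2, which encodes a repressive JUN partner, came nearest at -0.36 (SE 0.17, edgeR adjusted p = 0.401). Batf, the AP-1 factor of effector T cells, had -0.0026, and Nr4a2 and Nr4a3, induced by the receptor like Nr4a1, had 0.34 and -0.33. The ratio of Nr4a2 had opposite signs in the experiments, at 1.16 and -0.40. The EGR corepressors Nab1 and Nab2 had -0.02 and 0.06 and neither was called (0 at an unadjusted p under 0.05).

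The regulators upstream of these genes gave 0 calls in edgeR and limma-voom, and 0 in the Wald test of DESeq2 where it gave an adjusted p (10 of the 12, 12 of the 14 and 19 of the 22 genes of the lists that follow). Over all genes tested edgeR called 1.20%, and 0 calls in lists of this size cannot be told from that share. Of 12 tested genes for serum response factor, its ternary complex partners, CREB and MEF2, none passed, with a median log2 fold change of -0.05. Of these, 4 had an unadjusted p under 0.05 in edgeR, as had 1699 of all 16006 genes tested. Elk1, a ternary complex factor phosphorylated by ERK, had -0.49 (SE 0.19, edgeR adjusted p = 0.219) at 5.16 CPM, with -0.33 and -0.68 in the experiments, and Srf itself had -0.12. None of 14 NFAT, calcineurin and NF-kB genes was called (0 at an unadjusted p under 0.05, median -0.01), with Ppp3r1, the calcineurin regulatory subunit, at -0.14 (edgeR adjusted p = 0.511). None of 22 genes of the MAP kinase cascade was called (2 at an unadjusted p under 0.05, median -0.04), with Hras lowest in p at -0.16 (SE 0.07, edgeR adjusted p = 0.357).

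Of 9 tested MAP kinase phosphatases, which switch MAP kinases off, Dusp4 and Dusp16 fell, against 0.437% of all genes tested called lower. Dusp4, itself induced by ERK, had -0.53 (SE 0.14, edgeR adjusted p = 0.0152) and Dusp16, which acts on JNK and p38, had -0.56 (SE 0.15, edgeR adjusted p = 0.0279). Both were lower in each experiment, Dusp4 at -0.55 and -0.51 and Dusp16 at -0.65 and -0.46. Both calls were lost when genes under 5 CPM were left out (edgeR adjusted p = 0.111 and 0.113) and with that offset (0.207 and 0.108 in edgeR). The log2 fold changes were then -0.51 and -0.41 for Dusp4 and -0.54 and -0.51 for Dusp16. Limma-voom made both calls, and DESeq2 gave neither gene an adjusted p. Dusp6, the ERK-specific phosphatase, had -0.25 (edgeR adjusted p = 0.0594), from -0.02 in experiment 1 and -0.48 in experiment 2.

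Other immediate early genes did not fall as a group by their median over both experiments. None of 33 passed in edgeR or limma-voom, nor any of the 19 to which DESeq2 gave an adjusted p. With 0.437% of all genes tested called lower in edgeR, 0 calls in a list of this size cannot be told from that share. Of the 33, 7 had an unadjusted p under 0.05 in edgeR, against 1699 of all 16006 genes tested. The median log2 fold change of the 33 was 0.04, with 0.08 in experiment 1 and -0.03 in experiment 2. Ier2, a nuclear protein gene induced with the Egr genes, had -0.20 (SE 0.06, edgeR adjusted p = 0.0898), at -0.04 and -0.37 in the experiments. Cd69, the early surface marker of activation, had -0.21 (edgeR adjusted p = 0.0977), and Myc had 0.18 (0.168 in edgeR). Among these genes, 21 of 33 were called higher and 7 lower in experiment 2 than in experiment 1 in edgeR, against 26.4% and 29.2% of all genes tested.

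Genes known to lie downstream were read last. Of 10 tested targets of EGR2 and EGR3 in T cells, 1 was called, against 0.762% of all genes tested called higher. Dgka, a diacylglycerol kinase that EGR factors induce and that dampens RAS signalling, rose, at a log2 fold change of 0.27 (SE 0.07, edgeR adjusted p = 0.0136), with 0.31 and 0.24 in the experiments. The call was lost when genes under 5 CPM were left out (edgeR adjusted p = 0.0533) and with that offset (0.524 in edgeR), and it was made by the Wald test of DESeq2 (0.00249). Cblb, a ubiquitin ligase gene among the targets of EGR2, had 0.03, and Tnfrsf9, which encodes the costimulatory receptor 4-1BB, had -0.22 (edgeR adjusted p = 0.0677) and was called lower by limma-voom. None of 8 tested cytokine and receptor genes driven by AP-1 and NFAT was called in edgeR or limma-voom (median 0.03). Nor was any of the 3 to which DESeq2 gave an adjusted p. Over all genes tested, edgeR called 1.20%. Of the 8, 1 had an unadjusted p under 0.05 in edgeR, against 1699 of all 16006 genes tested. Xcl1, a chemokine gene, came nearest at -0.22 (edgeR adjusted p = 0.446). Il2 was counted too little to be tested, with 0 counts in both sgElovl1 columns, against 4 and 5 in the sgNT columns. These counts lie near the limit of 3 that a count of 0 allows.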

How the data were processed

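Polyadenylated RNA of 8 samples was sequenced with strand-specific paired-end libraries. According to the submitters' notes and the methods, reads were aligned by the authors with STAR 2.7.10b to GRCm39 and counted over whole genes, introns included, on the reverse strand with featureCounts 2.0.1. The deposited values are raw counts, and each of the 4 columns sums the 2 replicates of a condition and experiment, so that values have no SD. The p-values of edgeR rest on a spread trend shared by all genes and not on a gene's own spread among the 4 sums. No p-value here measures the spread between replicate mice.

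The members and gene lists were chosen with earlier results of these data known. Genes passing edgeR's expression filter (16006 of 56805, with 32132 at no count) were fitted with edgeR 4.0.16 (R 4.3.3), TMM factors, condition and experiment as terms, the quasi-likelihood test and Benjamini-Hochberg adjustment at 0.05. With 1 residual degree of freedom and an infinite prior, all genes shared 1 spread trend (biological coefficient of variation 6.98%). Intervals within an experiment are exact binomial at 95%. A count of 3, the limit that a count of 0 allows, equals 0.0473 to 0.0600 CPM. On simulated data, 52.6% of genes changed by 0.5 and 74.7% changed by 1 on the log2 scale were recovered for the comparison of sgElovl1 with sgNT, with 6 false calls among 15741 genes. Rates on simulated data do not measure how many calls in the real columns are false.

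Named were all members, Elovl1, up to 4 called genes of each list or else the gene with the smallest p, and the 5 genes nearest to Egr1 by the distance of their 2 log2 ratios. Egr4, Batf, Nr4a2, Nr4a3, Nab1, Srf, Dusp6, Cd69, Myc, Cblb, Tnfrsf9 and Il2 were named after their values were seen. The alternatives tried were DESeq2 1.42.0 (Wald and likelihood-ratio tests), limma-voom 3.58.1, other scalings and filters, an offset that removed a shift along the difference between experiments, no experiment term, and leaving out each column. Promoter windows and names came from RefSeq tables, exon lengths from GENCODE M21, and figures were drawn with matplotlib 3.10.9.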

Additional observations from a re-analysis of the deposited data

Results flagged for a closer look

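Fosb and Junb had counting intervals on opposite sides of 0 in the experiments. The log2 ratio of sgElovl1 to sgNT was 0.51 in experiment 1 and -0.60 in experiment 2 for Fosb, and 0.12 in experiment 1 and -0.30 in experiment 2 for Junb. Each experiment had 1 column per condition, so the difference between the experiments was not tested. A difference at least as large was seen in 0.281% (Fosb) and 6.38% (Junb) of the 10658 genes with at least 100 counts in every column.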

How the results depend on the processing

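With DESeq2 size factors, upper-quartile factors, and mitochondrial and the 20 most counted genes left out of scaling, Egr1, Egr2 and Jun passed as in the report, while 176, 239 and 217 genes were called (192 in the report). No filter gave 94 genes (Egr1 and Egr2 among them), a mean of at least 5 CPM 35 genes and 1 member (Egr1, with Egr2 below the filter), limma-voom 193 genes (Egr1 and Egr2), and removal of a shift between experiments 72 genes (Egr1 and Egr2). DESeq2 with a Wald or a likelihood-ratio test called 26 genes and 0 members (572 and 557 genes at an unadjusted p under 0.05). Among the members it gave an adjusted p to Egr1, Fosl2, Jun, Junb and Jund only. Without a term for the experiment, 0 genes and 0 members passed. In these fits with 4 columns every member given a value kept its sign, while the log2 fold change of Fosb was -0.41 to -0.13. Scaling moved the split of the 192 calls, 122 higher and 70 lower, to 132 and 44 with DESeq2 size factors and to 182 and 57 with upper-quartile factors. Leaving out each column called 0 to 6 genes and 0 members. The signs that turned were those of genes whose log2 fold changes ranged from -1.75 to 0.17 for Egr1, -0.51 to 0.0079 for Fos, -1.54 to 1.68 for Fosb, -0.31 to 0.14 for Fosl2, -0.36 to 0.20 for Junb, -0.082 to 0.20 for Jund, -0.34 to 0.12 for Nr4a1, -0.10 to 0.26 for Nab2, -0.48 to 0.27 for Ppp3r1, -0.48 to 0.22 for Hras, -1.37 to 0.32 for Dusp4, -0.41 to 0.029 for Ier2, -0.48 to 1.09 for Dgka and -0.60 to 0.24 for Xcl1. These fits have no experiment term, so that the difference between experiments enters the fold change. No paired analysis was possible because each deposited column sums replicates 1 and 2, so that replicate numbers cannot be matched across conditions. Columns of the same experiment are matched by the experiment term. Depth limits Egr3 (23 to 36 counts) most among the members.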
